A study of Mus musculus with 10 samples.

Results

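White and brown adipocyte genes were followed in whole lungs of mice with increased pulmonary flow (IPF) and of sham-operated mice. The 8 genes were taken by name from the 54532 genes of the deposited table. Adipoq, Plin1, Cfd, Retn and Lep stand for white adipocytes, and Ucp1, Cidea and Cox8b for brown adipocytes. Both groups were wild-type mice, given in the methods as C57BL/6J. In the IPF group, a needle puncture on postnatal day 7 (P7) opened the aorta into the vena cava within the abdomen (an aortocaval fistula), and sham mice had the same laparotomy with the vessels left intact. mRNA of the lungs was sequenced at P30 from 5 libraries per group, named here by group and replicate number (IPF 1 to IPF 5, sham 1 to sham 5). The question put to these genes was whether adipocyte transcripts differed between the operations, and whether white and brown genes moved alike.

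White adipocytes store triglyceride in a single large lipid droplet and secrete hormones and other proteins into the blood. Brown adipocytes hold many small droplets and many mitochondria, and they burn fatty acids to make heat. In the mouse, both kinds of fat also lie in the mediastinum, beside the heart and the lungs. The lung itself holds fibroblasts with lipid droplets, which are not adipocytes.

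Values were the authors' FPKM, sequenced fragments per kilobase of gene, adjusted for library size. FPKM times gene length moved in whole steps, which gave the reads behind each value (15483046 to 19026843 reads on genes per library). Apart from Cox8b, most libraries held fewer than 10 reads of each of these genes, and 3 reads were set as the floor under which a value was not interpreted. The floor was 0.115 to 0.142 FPKM for Adipoq, 0.172 to 0.213 for Cfd, 0.0970 to 0.120 for Ucp1 and 0.441 to 0.546 for Cox8b, depending on the library. Counting intervals and floors cover counting error only. The lung labels held in all libraries, with Sftpc, the surfactant protein C gene of alveolar type 2 cells, at 9437 to 16514 FPKM. Sham 1 stood apart, with that lowest Sftpc value and the highest value of all libraries in 18.2% of the genes tested. The labels give no sex, but Xist, the RNA of the silenced X chromosome, was at 26.8 to 43.2 FPKM in the IPF and 0.0301 to 0.0767 in the sham libraries, and the Y-linked Ddx3y was at 0 and at 14.3 to 21.4 FPKM. Sex and operation therefore cannot be told apart in any difference below. The methods, by contrast, describe pups of both sexes, allocated to the groups in balance where feasible.

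The promoters of 3 members are shown because their genes carried the peaks described below: Adipoq and Cfd in IPF 3, and Ucp1 in IPF 4. Each run holds the 250 bases before the gene's RefSeq start (GRCm38.p6), 5′ to 3′ on the strand of the gene. Capitals mark 2 motifs found on either strand, the CCAAT box (CCAAT, or ATTGG on the other strand), which C/EBP and NF-Y proteins are known for, and the nuclear receptor half-site AGGTCA, a core of the sites of PPAR and retinoid X receptors.

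Adipoq, chr16:23146286-23146535, + strand: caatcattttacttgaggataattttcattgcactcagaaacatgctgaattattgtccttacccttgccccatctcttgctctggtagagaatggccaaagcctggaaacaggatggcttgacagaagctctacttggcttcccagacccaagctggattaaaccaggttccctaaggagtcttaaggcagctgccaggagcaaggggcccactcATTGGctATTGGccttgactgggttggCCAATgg

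Cfd, chr10:79890603-79890852, + strand: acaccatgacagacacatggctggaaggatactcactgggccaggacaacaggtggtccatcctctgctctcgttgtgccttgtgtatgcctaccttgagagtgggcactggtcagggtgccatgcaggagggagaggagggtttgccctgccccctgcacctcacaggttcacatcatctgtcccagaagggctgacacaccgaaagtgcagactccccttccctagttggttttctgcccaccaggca

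Ucp1, chr8:83290098-83290347, + strand: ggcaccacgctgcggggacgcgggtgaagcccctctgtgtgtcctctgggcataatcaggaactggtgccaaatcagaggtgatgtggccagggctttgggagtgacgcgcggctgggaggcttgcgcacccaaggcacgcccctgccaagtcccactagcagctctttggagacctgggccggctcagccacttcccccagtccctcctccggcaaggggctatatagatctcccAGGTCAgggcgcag

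The Adipoq window held CCAAT 7 bases before the start and ATTGG 27 and 34 bases before it. The Ucp1 window held AGGTCA 14 bases before the start. The Cfd window held neither motif, and none of the 3 held the exact letters TATAAA of a TATA box. Variants of a TATA box were not searched, so the tatata of the Ucp1 window was not counted. Among 32851 mouse promoter windows of this length, 33.8% held a CCAAT box, 14.0% an AGGTCA half-site and 12.4% the letters TATAAA on either strand. These matches describe letters, and whether a protein bound there was not measured.

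Adipoq (ENSMUSG00000022878, chromosome 16, 23146536 to 23158028 of GRCm38) encodes adiponectin, a hormone made by adipocytes. It was at 0, 0.0869, 0.881, 0.159 and 0 FPKM in IPF 1 to 5 and at 0, 0.0404, 0.0451, 0.0870 and 0 FPKM in sham 1 to 5. IPF 3 was high with 23 reads, IPF 4 had 4, and each other library had 2 reads or fewer, so the groups overlapped. The means were 0.225 ± 0.372 and 0.0345 ± 0.0363 FPKM (SD, n = 5 each) for IPF and sham. On log2(FPKM + 0.1), the scale of all fold changes here, which understates changes of low genes, the difference was 0.73 (standard error 0.59, adjusted p = 0.551 from limma). In whole lung, more cells of a type and more RNA per cell cannot be told apart for this or any other gene.

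Cfd (ENSMUSG00000061780, chromosome 10, 79890853 to 79892655) encodes adipsin, the complement factor D that adipocytes secrete. Its values were 0.191, 0.195, 7.29, 0.536 and 0.0613 FPKM in IPF 1 to 5 and 0.0658, 0.242, 0.338, 0.0651 and 0 FPKM in sham 1 to 5. IPF 3 alone stood above 1 FPKM, with 127 reads or 82.5% of all reads of the gene. Its level was 13.6-fold that of the next library, IPF 4, and its exact 95% Poisson interval was 6.07 to 8.67 FPKM. The 4 other IPF libraries overlapped the sham libraries, with 1 to 9 reads against 0 to 5. The group means were 1.65 ± 3.15 and 0.142 ± 0.142 FPKM for IPF and sham (SD, n = 5 each), and the log2 difference was 1.46 (standard error 0.90, limma adjusted p = 0.413).

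Plin1 (ENSMUSG00000030546, chromosome 7, 79720218 to 79732903, minus strand) encodes perilipin 1, the coat protein of the adipocyte lipid droplet. It was at 0.0885, 0.0387, 0.205, 0.0944 and 0.0729 FPKM in IPF 1 to 5 and at 0.0783, 0.0120, 0, 0.0646 and 0.0282 FPKM in sham 1 to 5. IPF 3 was again the highest library, with 18 reads, and the groups overlapped. Retn (ENSMUSG00000012705, chromosome 8, 3655770 to 3660110) encodes resistin, a secreted protein of mouse adipocytes. It held 0, 0, 7, 4 and 1 reads in IPF 1 to 5 and 3, 1, 4, 2 and 0 in sham 1 to 5. Lep (ENSMUSG00000059201, chromosome 6, 29060220 to 29073877) encodes leptin, the adipocyte hormone that restrains feeding, and it had 3 reads in IPF 3, 1 in sham 1 and 0 in the 8 other libraries. All 3 genes lay below the mean of 0.1 FPKM that the test required, and exact permutation tests over every split of the 10 libraries into 5 and 5 gave two-sided p = 0.0556 for Plin1, 0.929 for Retn and 1 for Lep, where the smallest p possible was 0.00794. The log2 differences were 0.53 for Plin1, -0.06 for Retn and 0.06 for Lep.

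All 5 white genes were thus highest in IPF 3, a library that held the highest value in 13.3% of the genes tested. For Adipoq 69.7% and for Cfd 82.5% of all reads over the 10 libraries came from it, for Plin1 32.1% and for Retn 31.8%. The next library was IPF 4 for Adipoq, Cfd and Plin1 and sham 3 for Retn, at 0.158 FPKM against 0.234 in IPF 3. The interval of Retn in IPF 3, 0.0943 to 0.483 FPKM, included the sham 3 value. The per-library plot shows the single high point in the panels of Adipoq, Cfd and Plin1.

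**Figure D1:**
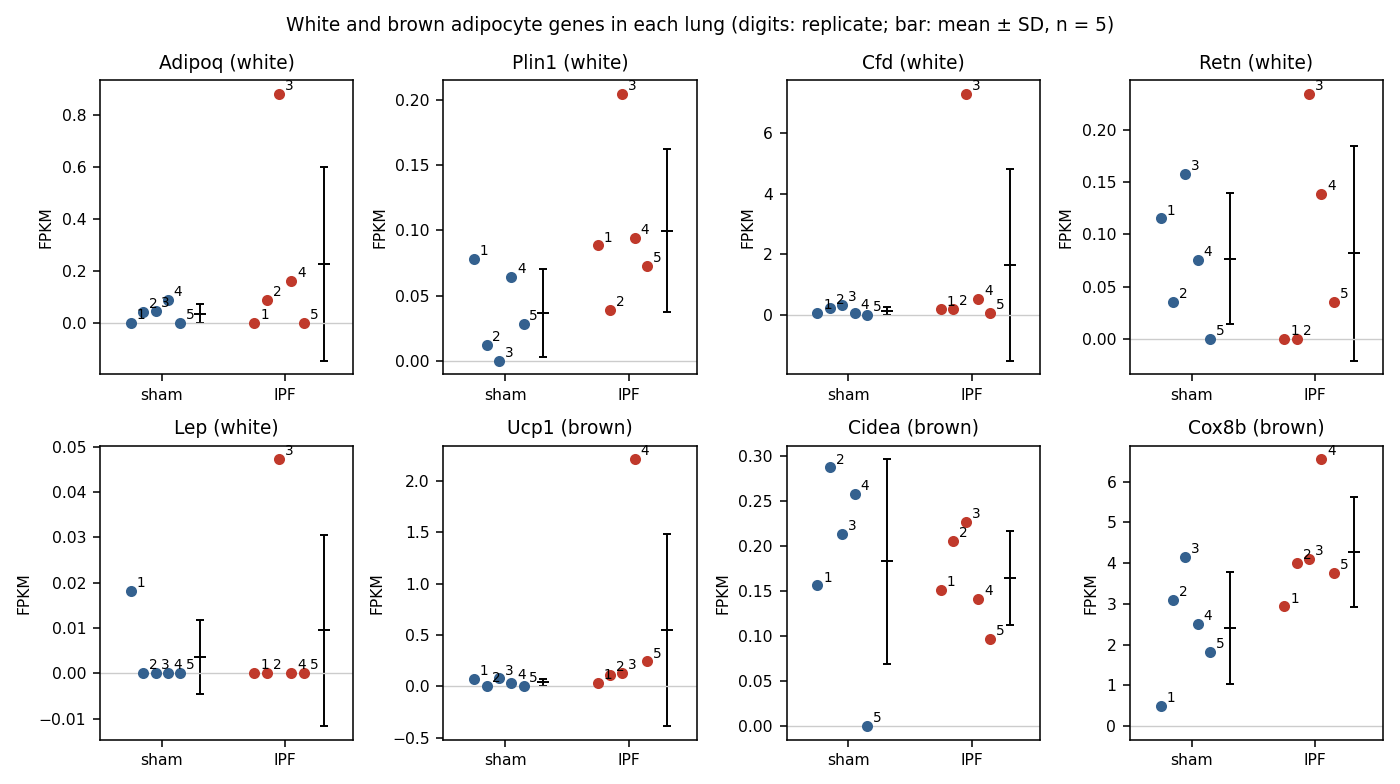
Level in FPKM (vertical axis, linear, its own range in each panel) of the 5 white and 3 brown adipocyte genes in 5 sham (blue) and 5 IPF (red) lungs. Digits give the replicate number and black bars the mean ± SD of 5 libraries, which reach below 0 where 1 library dominates. Cfd reached 7.29 FPKM in IPF 3 and Ucp1 2.21 FPKM in IPF 4, while Cidea and Cox8b spread over both groups.

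Ucp1 (ENSMUSG00000031710, chromosome 8, 83290352 to 83298452) encodes uncoupling protein 1, the mitochondrial proton carrier by which brown fat makes heat. It was at 0.0359, 0.110, 0.129, 2.21 and 0.242 FPKM in IPF 1 to 5 and at 0.0742, 0, 0.0761, 0.0367 and 0 FPKM in sham 1 to 5. IPF 4 was high, with 66 reads or 76.7% of all reads of the gene and an exact 95% Poisson interval of 1.71 to 2.82 FPKM. IPF 2, IPF 3 and IPF 5 had 3, 4 and 7 reads and IPF 1 had 1, against 0 to 2 in the sham libraries. So 4 of the 5 IPF libraries lay above all sham libraries, and IPF 1 lay among them. The means were 0.546 ± 0.935 and 0.0374 ± 0.0376 FPKM for IPF and sham (SD, n = 5 each), and the log2 difference was 1.39 (standard error 0.66, unadjusted p = 0.0597 and adjusted p = 0.278 from limma). An exact permutation test gave a two-sided p = 0.0397 for Ucp1, unadjusted and the lowest of the 8 members, and 0.190 for Cfd, 0.389 for Adipoq and 0.976 for Cidea. Ucp1 reached the mean needed for the limma test only through IPF 4.

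Cox8b (ENSMUSG00000025488, chromosome 7, 140898945 to 140900446, minus strand) encodes subunit 8B of cytochrome c oxidase, the form used in brown fat, heart and skeletal muscle. It was at 2.94, 4.00, 4.11, 6.55 and 3.77 FPKM in IPF 1 to 5 and at 0.506, 3.10, 4.15, 2.50 and 1.82 FPKM in sham 1 to 5. Every library held reads of it, 18 to 43 in the IPF and 3 to 24 in the sham group. IPF 4 was the highest and sham 1 the lowest, and the groups overlapped, since sham 3 lay above 4 of the IPF libraries. The means were 4.27 ± 1.35 and 2.42 ± 1.37 FPKM for IPF and sham (SD, n = 5 each), and the log2 difference was 1.01 (standard error 0.44, unadjusted p = 0.0443 and adjusted p = 0.239 from limma). The exact permutation test gave a two-sided p = 0.0714. The difference was 0.56 without sham 1 (limma adjusted p = 0.284) and 0.84 without IPF 4 (limma adjusted p = 0.407).

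Cidea (ENSMUSG00000024526, chromosome 18, 67343564 to 67367794) encodes a lipid droplet protein that joins droplets in brown and beige adipocytes. It was at 0.151, 0.206, 0.227, 0.141 and 0.0971 FPKM in IPF 1 to 5 and at 0.156, 0.287, 0.214, 0.258 and 0 FPKM in sham 1 to 5. No library had more than 6 reads, the highest was sham 2, and all IPF values lay within the sham range. Its log2 difference was 0.02 (standard error 0.38, limma adjusted p = 0.987), and it took the other sign without sham 5, at -0.32. B430212C06Rik, at most 0.177 FPKM, overlaps it on the opposite strand, and the sources used here do not say whether reads were assigned by strand, so reads of the pair cannot be told apart.

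No member passed the test between IPF and sham, which was an adjusted p under 0.05 from limma with Benjamini-Hochberg adjustment over 20448 genes. Of all genes tested, 3.71% passed higher and 2.14% lower in the IPF group, and 0.68% and 0.46% when a log2 fold change beyond 1 was also required. Only 5 of the 8 members reached the mean of 0.1 FPKM, and Adipoq no longer reached it without IPF 3, nor Ucp1 without IPF 4, so the values of the tested members were set in part by the group in which they were high. At an unadjusted p under 0.05, 1 of the 5 tested members passed, Cox8b, beside 19.5% of all genes tested. With limma voom on the recovered reads, 0 members passed. The median log2 difference was 0.53 over all 5 white members, those too low to test included, and 1.01 over the 3 brown members, beside 0.0016 over all genes tested.

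**Figure D2:**
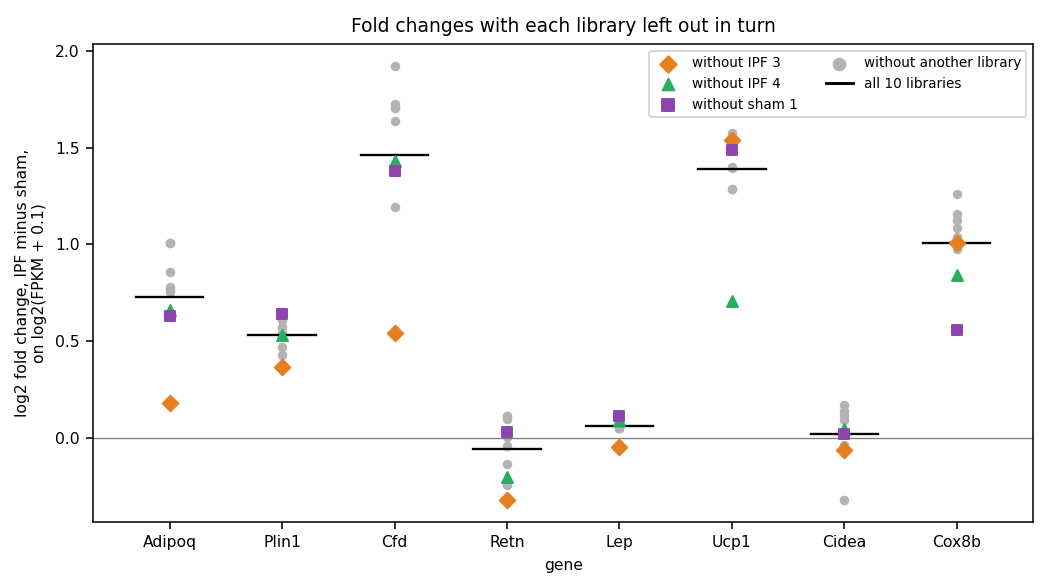
Log2 fold change of each member, IPF minus sham on log2(FPKM + 0.1) (vertical axis), with all 10 libraries (black line) and with each library left out in turn (points). Cfd was at 0.54 without IPF 3 (orange), Ucp1 at 0.71 without IPF 4 (green) and Cox8b at 0.56 without sham 1 (purple).

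Single libraries decided the size of these differences. Without IPF 3, the log2 difference was 0.54 for Cfd (limma adjusted p = 0.635), 0.18 for Adipoq, 0.37 for Plin1 and -0.32 for Retn. Without IPF 4, that of Ucp1 was 0.71. Without both, it was 0.19 for Cfd, -0.09 for Adipoq, 0.31 for Plin1, -0.60 for Retn, -0.05 for Lep, 0.68 for Ucp1, -0.05 for Cidea and 0.79 for Cox8b. Cidea was also at -0.06 without IPF 3. In both groups of genes, some members thus kept a positive sign in these comparisons (the white Cfd and Plin1, the brown Ucp1 and Cox8b) and others did not (the white Adipoq, Retn and Lep, the brown Cidea). Without IPF 4, the sign of Ucp1 rested on 1 to 7 reads in the other IPF libraries against 0 to 2 in sham libraries, mostly at or under the floor.

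Mean levels per kilobase were ordered as follows, although several of the lower means lie at or under the floor of 3 reads per library. In sham lungs, Cox8b had the highest mean at 2.42 FPKM, followed by Cidea at 0.183, Cfd at 0.142, Retn at 0.0769, Ucp1 at 0.0374, Plin1 at 0.0366, Adipoq at 0.0345 and Lep at 0.00362. In IPF lungs the order was Cox8b at 4.27 FPKM, Cfd at 1.65, Ucp1 at 0.546, Adipoq at 0.225, Cidea at 0.165, Plin1 at 0.0999, Retn at 0.0819 and Lep at 0.00946. Neighbours in either order differed by less than the SD between libraries of at least 1 of the pair, except for Cox8b over Cidea in sham lungs and Cidea over Plin1 in IPF lungs. The IPF order rested on single libraries, since without IPF 3 and IPF 4 the IPF mean was 0.149 FPKM for Cfd, 0.129 for Ucp1 and 0.0290 for Adipoq, below the 0.152 FPKM of Cidea.

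White and brown genes did not peak in the same lungs. The summed FPKM of the 5 white genes was 0.280, 0.321, 8.65, 0.928 and 0.170 in IPF 1 to 5 and 0.277, 0.330, 0.541, 0.293 and 0.0282 in sham 1 to 5. The summed FPKM of the 3 brown genes was 3.12, 4.32, 4.47, 8.91 and 4.11 in IPF 1 to 5 and 0.736, 3.39, 4.44, 2.80 and 1.82 in sham 1 to 5. White genes exceeded brown genes in IPF 3 alone, and most of the brown sum was Cox8b. Ucp1 and Cidea without Cox8b summed to 2.36 FPKM in IPF 4 and to at most 0.357 FPKM in the 9 other libraries. That peak was Ucp1 alone, at 2.21 FPKM, while Cidea had 3 reads in IPF 4 and was highest in sham 2. The log2 ratio of the white to the brown sum was -2.83 ± 2.17 in the IPF and -3.42 ± 1.65 in the sham group (SD, n = 5 each). The difference of 0.588 was smaller than the pooled SD of 1.93, and it was -0.357 without IPF 3 and -0.062 without sham 5. In this ratio the groups differed by less than the spread between libraries.

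**Figure D3:**
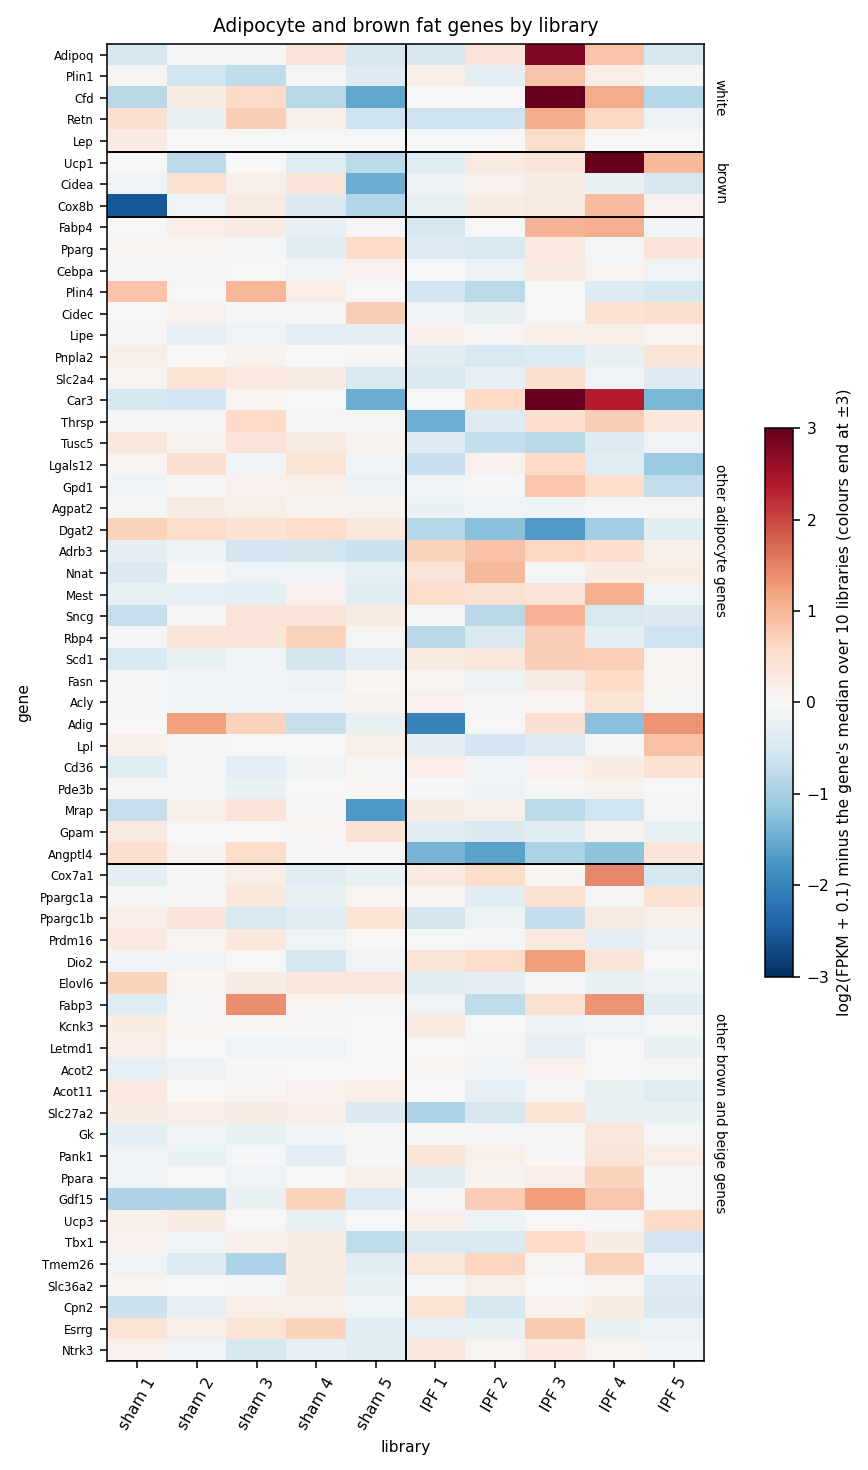
Adipocyte and brown fat genes (vertical axis) in 10 libraries (horizontal axis), coloured by log2(FPKM + 0.1) minus the median of the gene over the libraries, with colours ending at ±3. The 5 white and 3 brown members stand on top, and the tested genes of the other adipocyte (30) and other brown and beige lists (23) follow. Cfd, Adipoq and Car3 are deep red in IPF 3 and Ucp1 in IPF 4, while Dgat2 is blue in all 5 IPF libraries.

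Genes of other cell types were also high in the libraries that carried the peaks. In IPF 3, Scgb1a1, the secretoglobin of airway club cells, was at 25938 FPKM, the highest of all libraries, and Foxj1, a regulator of motile cilia, was at 30.7 FPKM. Of 10 lymph node and thymus genes, 7 were highest in IPF 3, beside 13.3% of all genes tested. Of the others, Rag1 (16 reads) and Rag2 (1 read) were highest in IPF 4, and Cr2 in IPF 1. The summed level of the list was 6.92 to 10.8 FPKM in the IPF and 4.24 to 7.08 FPKM in the sham group. Of the 8 lung epithelium genes 3 peaked in IPF 3 and 3 in sham 3, with sums of 21020 to 46062 FPKM in IPF and 27437 to 42331 FPKM in sham libraries.

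In IPF 4, which held the highest value in 8.92% of all genes tested, 9 of 12 heart muscle genes were highest. The list summed to 20.3 to 175 FPKM in the IPF and 31.3 to 156 FPKM in the sham group. Nppa, the atrial peptide gene, had 1 read over all libraries, in sham 1. Myh6, the alpha myosin heavy chain of heart muscle, was at 18.7 FPKM in IPF 4, at 15.3 FPKM in sham 3 and at most 0.148 FPKM elsewhere. Myl7, an atrial myosin light chain, was at 63.9 FPKM in IPF 4 and 55.2 FPKM in sham 3. Sham 3 thus shared the heart genes but held 2 reads of Ucp1, and its Cox8b was 4.15 FPKM, the highest of the sham group. Of 9 mesothelium genes, 5 peaked in IPF 4, with sums of 176 to 210 FPKM in IPF and 169 to 235 FPKM in sham libraries. Of 12 skeletal muscle genes, 5 did, with sums of 2.12 to 6.50 and 2.39 to 3.99 FPKM. The part of other tissue in the adipocyte values was not tested.

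**Figure D4:**
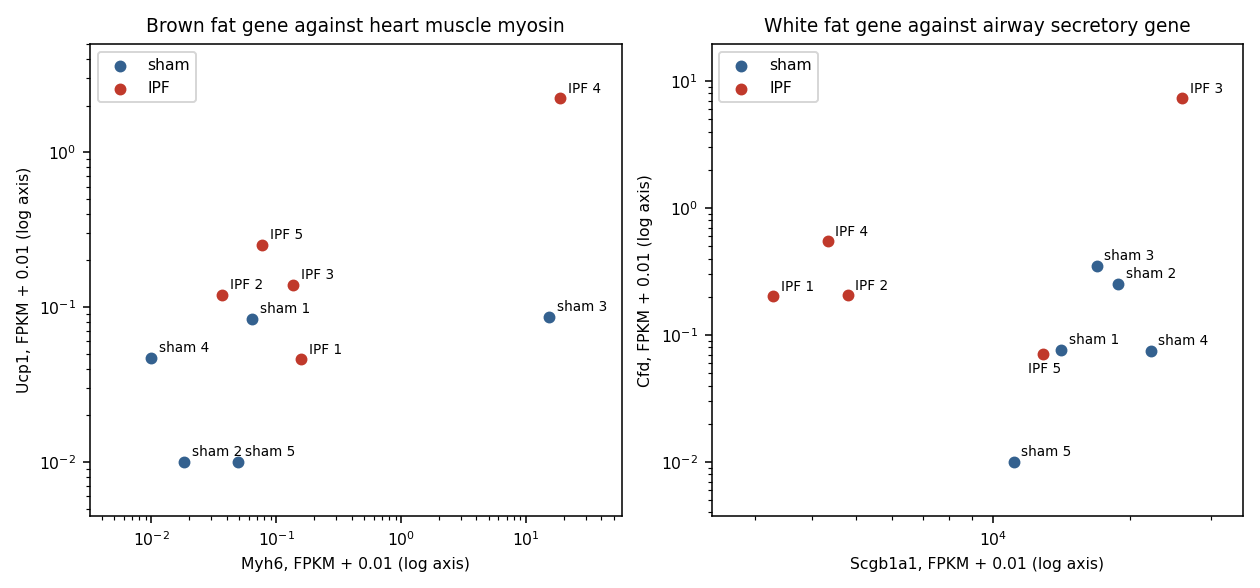
Left, Ucp1 against Myh6, and right, Cfd against Scgb1a1, in FPKM + 0.01 on log axes, for 5 sham (blue) and 5 IPF (red) libraries. IPF 4 and sham 3 both stand at the right of the Myh6 axis, with Ucp1 at 2.21 and 0.0761 FPKM, and IPF 3 is highest on both axes of the right panel.

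Of the further adipocyte genes, Car3 was high in IPF 3 and IPF 4 and Pck1 and Otop1 in IPF 4, and these 3 are named after their values were seen. Car3, the carbonic anhydrase 3 abundant in fat and muscle, had 186 reads in IPF 3, 105 in IPF 4 and 2 to 25 elsewhere. Pck1, an enzyme that makes glycerol for triglyceride in fat, had 24 reads in IPF 4 and at most 3 elsewhere. Otop1, a proton channel found in brown fat, had 6 reads in IPF 4 and at most 1 elsewhere. Of 34 other adipocyte genes, 8 were highest in IPF 3 and 8 in IPF 4, and of 32 other brown and beige genes, 6 and 7 were, while of all genes tested 13.3% peaked in IPF 3 and 8.92% in IPF 4. The other genes of both lists peaked elsewhere.

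Among the 34 other adipocyte genes, 30 could be tested, 3 rose and 2 fell in the IPF group, and 25 did not pass, beside 3.71% higher and 2.14% lower over all genes tested. Their median log2 fold change was -0.08, beside 0.0016 over all genes. At an unadjusted p under 0.05 from limma, 13 of the 30 passed, beside 19.5% of all genes tested, in a list written with earlier results known. Dgat2, which completes triglyceride synthesis, was at 2.76, 2.04, 1.49, 2.40 and 4.03 FPKM in IPF 1 to 5 and at 8.21, 7.45, 6.81, 7.38 and 6.30 FPKM in sham 1 to 5. The groups did not overlap, and Dgat2 fell by 1.54 in log2 (standard error 0.21; limma adjusted p = 0.00211). Adrb3, the adrenergic receptor that drives lipolysis in mouse fat, was at 5.97, 6.93, 5.77, 5.33 and 4.17 FPKM in IPF 1 to 5 and at 3.09, 3.34, 2.45, 2.53 and 2.35 FPKM in sham 1 to 5. It rose by 1.00 (standard error 0.14, limma adjusted p = 0.00263), with all IPF above all sham libraries. Dgat2 and Adrb3 were the only genes of the list past both limits, 1 in each direction. Adrb3 was at the fold limit, and its log2 fold change was 0.82 with a pseudocount of 1 and 0.92 to 0.99 without IPF 1, IPF 2, IPF 3, sham 3, sham 4 or sham 5.

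Scd1, which desaturates fatty acids, had the highest level of the list, with 660 ± 136 FPKM in IPF and 393 ± 52.4 FPKM in sham lungs (SD, n = 5 each). It rose by 0.73 (limma adjusted p = 0.0160). Lipe, the hormone-sensitive lipase, rose by 0.31 (limma adjusted p = 0.0222), and Tusc5, a trafficking regulator of the glucose transporter GLUT4, fell by 0.73 (limma adjusted p = 0.00755). Lipe had a limma adjusted p of 0.0519 to 0.0620 without IPF 1, IPF 4, sham 2, sham 4 or sham 5. The fatty acid carrier Cd36, at 381 ± 50.3 and 302 ± 32.8 FPKM, did not pass (log2 fold change 0.33, limma adjusted p = 0.115). Neither did the transcription factor Cebpa, at 61.0 ± 6.71 and 60.6 ± 3.60 FPKM (SD, n = 5 each). Scd1 and Cebpa are also known from alveolar type 2 cells and Cd36 from capillary endothelium, so Scd1, Cebpa and Cd36 do not mark adipocytes alone in the lung. Which cells carried Lipe and Tusc5 was not tested.

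Among 32 other brown and beige genes, 23 could be tested, and 1 rose and 1 fell, near the 3.71% and 2.14% of all genes tested, with a median log2 fold change of 0.07. Of the 23, 6 had an unadjusted p under 0.05 from limma, beside 19.5% of all genes tested. Pank1, a kinase of coenzyme A synthesis, rose by 0.36 (limma adjusted p = 0.0301), and Elovl6, a fatty acid elongase, fell by 0.53 (limma adjusted p = 0.0270). With libraries blocked by replicate number neither passed (limma adjusted p = 0.0803 and 0.0721). Pank1 had a limma adjusted p of 0.0504 to 0.0808 without IPF 1, IPF 2, IPF 4, sham 1, sham 2 or sham 4, and Elovl6 one of 0.0503 to 0.0696 without IPF 1, IPF 2, IPF 4, sham 3, sham 4 or sham 5. The most abundant genes of the list, the potassium channel gene Kcnk3, the amino acid transporter gene Slc36a2 and the fatty acid-binding protein gene Fabp3, had log2 fold changes of -0.08, -0.06 and -0.09 (limma adjusted p of 0.661, 0.832 and 0.932). Fabp3 was at 12.6 FPKM in IPF 4 and 12.9 FPKM in sham 3, the libraries in which heart genes were high.

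Of 7 receptors for adipokines, natriuretic peptides, insulin and catecholamines, all were tested, 0 rose and 1 fell, beside 3.71% higher and 2.14% lower over all genes tested, with a median log2 fold change of -0.05. The same gene was the only receptor of the 7 at an unadjusted p under 0.05 from limma, beside 19.5% of all genes. Cdh13, the T-cadherin that binds adiponectin, fell by 0.59 (limma adjusted p = 0.0437). That of Cdh13 lay at 0.0529 to 0.107 when any library other than IPF 5 or sham 4 was left out. The adiponectin receptor Adipor1 had 41.6 ± 4.75 and 40.5 ± 2.39 FPKM (log2 fold change 0.03, limma adjusted p = 0.858). The leptin receptor Lepr had 27.1 ± 5.12 and 26.4 ± 2.62 FPKM (log2 fold change 0.03, limma adjusted p = 0.936), and Adrb1, the receptor for noradrenaline in heart and fat, had 32.7 ± 3.87 and 33.7 ± 1.30 FPKM (log2 fold change -0.05, limma adjusted p = 0.768; SD, n = 5 each). Adipor2, Insr and Npr3 had limma adjusted p of 0.339, 0.360 and 0.497.

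**Figure D5:**
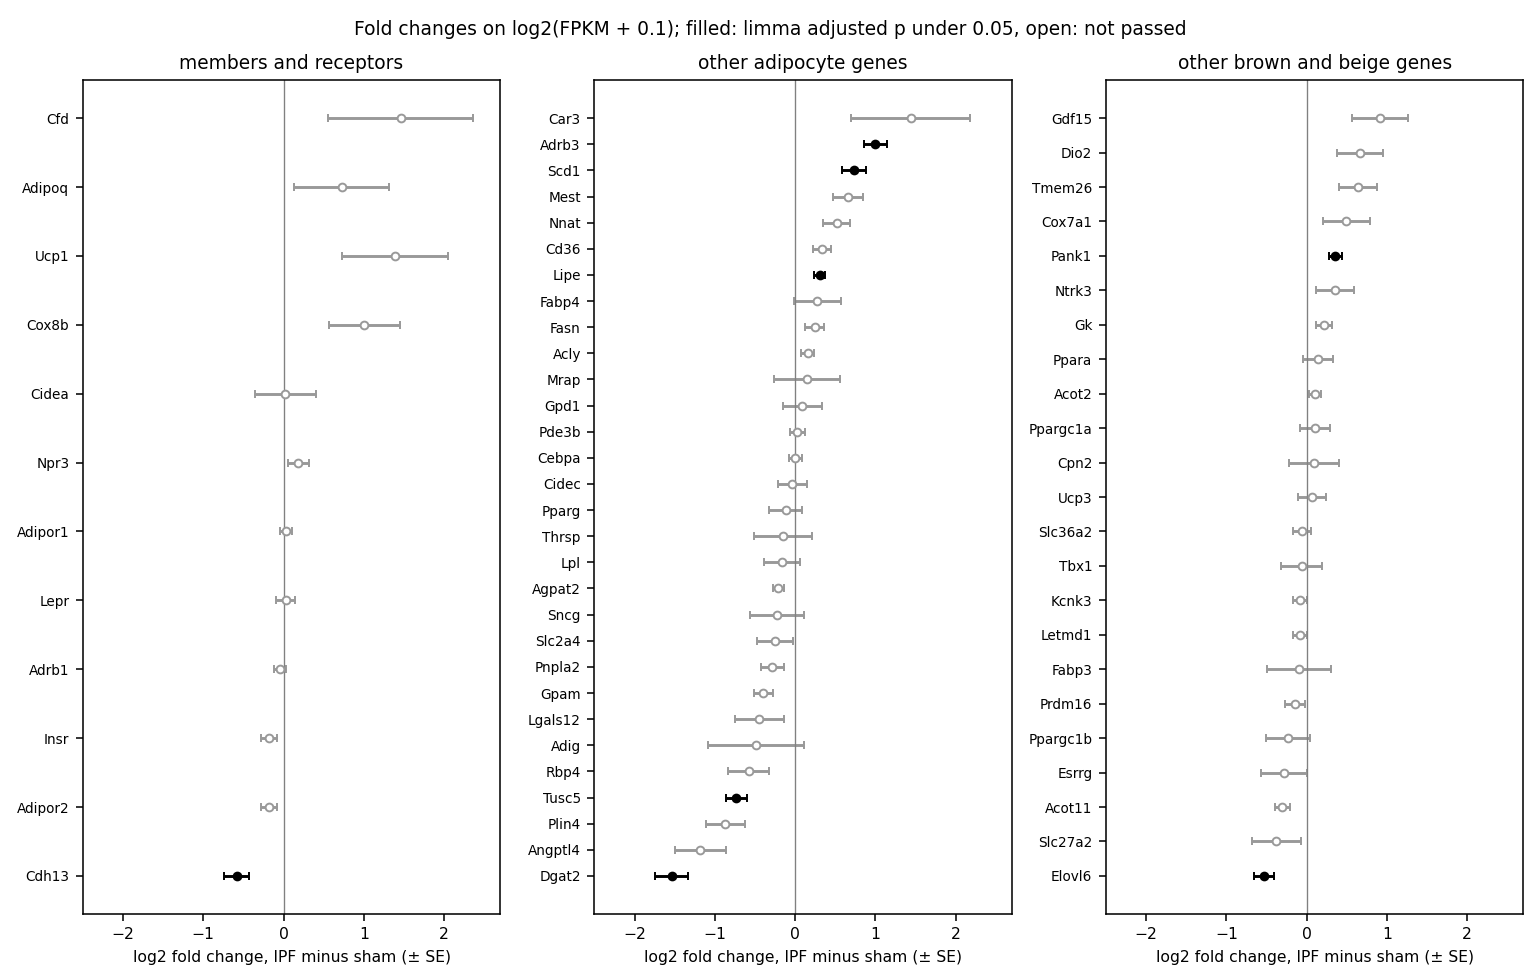
Log2 fold change, IPF minus sham on log2(FPKM + 0.1), with its standard error (horizontal axis) for tested members and receptors, other adipocyte genes and other brown and beige genes. Filled points passed a limma adjusted p under 0.05 and open points did not. Cfd, Adipoq, Ucp1 and Cox8b have wide bars and open points, and Dgat2 (-1.54) and Adrb3 (1.00) are the filled points farthest from 0.

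Several paralogs of the members had far higher levels in the lung. Cox8a, the cytochrome c oxidase subunit 8 of most tissues, was at 176 ± 8.25 FPKM in IPF and 162 ± 28.9 FPKM in sham lungs (SD, n = 5 each), and sham 1 was the lowest library, as for Cox8b. Plin2, the droplet coat protein of most cells, had 35.5 ± 3.64 and 28.0 ± 3.47 FPKM (SD, n = 5 each) and did not pass (log2 fold change 0.34, limma adjusted p = 0.0670). Ucp2, an uncoupling protein relative found in immune cells, fell by 0.48 (56.4 against 78.6 FPKM, limma adjusted p = 0.00585). It was the only one of 10 tested paralogs to pass, beside 2.14% of all genes tested that fell and 3.71% that rose. Retnla, which lung macrophages secrete, ranged from 8.02 to 106 FPKM, while Retnlb had no reads and Cox8c 1 read in all. Retnlg, Plin3, Plin5, Ucp3, Cideb and Cidec had limma adjusted p of 0.311, 0.335, 0.933, 0.881, 0.952 and 0.948. Reads that paralogs share could have been assigned to either gene.

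The genes whose log2(FPKM + 0.1) followed the members most closely were sought among 15349 genes with a mean of at least 0.5 FPKM, over the 10 libraries, as a description. For Adipoq they were Me1 (Pearson r = 0.967, Spearman rho = 0.944), Gsto1, Hdc, Pgd and Ldhb, with r from 0.946 to 0.967. Without IPF 3 and IPF 4, the libraries farthest from the median, r was 0.763 for Gsto1 and 0.920 for Ldhb, the lowest and highest of the 5. The 8 libraries left held 0 to 2 reads of Adipoq, under the floor, so these values do not show that the relation holds. Me1, Pgd and Ldhb encode the malic enzyme, a pentose phosphate enzyme and a lactate dehydrogenase subunit. For Ucp1 they were Gm17182 (r = 0.897, rho = 0.802), St3gal3, Utp6, Pirb and Hc, with r from 0.859 to 0.897. Without IPF 4 and IPF 5, r was 0.787 for Gm17182 and 0.317 for St3gal3, with 0 to 4 reads of Ucp1 in the 8 libraries left. The 10 points share the depth of their libraries and, for Adipoq and Ucp1, few reads.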

How the data were processed

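Lung mRNA of 5 IPF and 5 sham libraries at P30 was used, grouped by the sample titles. The methods name Fastp for trimming, HISAT2 for alignment and StringTie for quantification, while the submitters' processing notes name Bowtie, so the aligner, which sets how reads shared by paralogs were placed, is unsettled. The authors deposited FPKM per gene and sample, with gene length in bases. The methods name GRCm39, but the deposited positions are those of GRCm38, since the last gene of chromosome 1 ends at 195323493. The labels and the methods name different library kits. The authors tested with DESeq2, which was not used here.

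Genes with a mean of at least 0.1 FPKM (20448 of 54532) entered limma 3.58.1 under R 4.3.3 (trended variances, no covariate, Benjamini-Hochberg adjustment) on log2(FPKM + 0.1). A call was an adjusted p under 0.05, with and without a log2 fold change beyond 1. Single members were tested by exact permutation, two-sided. The fit was tested on simulated data with known changes, set only in genes with more reads than most members had. That test therefore does not show how well changes of such low genes are found. FPKM times length gave whole reads (within 0.05) for 99.99% of values or more per library. The labels do not say that libraries came from separate mice, so p-values measure the spread between these libraries. Pairs within a group differed beyond counting noise (chi-square per degree of freedom 4.78 to 37.3). Replicate numbers recur in both groups, but the deviations of same-numbered libraries correlated at -0.0204 to 0.0953, so no pairing was assumed. Tables were made in Python 3.11.15 with pandas 2.3.3, scipy 1.17.1 and matplotlib 3.10.9.

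The members and the gene lists were chosen with earlier results of these data known. Named were all members and their paralogs, list genes with an adjusted p under 0.05, the 3 genes of highest mean in each list, and the 5 genes most correlated with Adipoq and with Ucp1. Trarg1 was found as Tusc5 and Gyk as Gk by RefSeq synonyms. RefSeq promoters matched 7 of 8 members. Alternatives were the pseudocount, the filter, median-of-ratios scaling, no variance trend, the replicate block, limma voom on reads and leaving out each library. A further receptor gene was left out of its list and is not reported here. The columns of the table all belonged to a sample.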

Additional observations from a re-analysis of the deposited data

Results flagged for a closer look

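In 134 groups of 5 libraries, over 69 named genes, 20 had a highest or lowest library whose gap to its neighbour, divided by the range of the group, was above the limit of 0.710 (14.9%). Chance flags about 1 in 20 groups, but the share cannot be read against that, since genes of the same library are not independent and Gsto1, Pgd and Hc were chosen for following Adipoq or Ucp1.

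Among the members, IPF 3 stood apart for Adipoq (0.881 FPKM, others 0 to 0.159), Cfd (7.29 FPKM, others 0.0613 to 0.536) and Lep (0.0473 FPKM, others 0). IPF 4 stood apart for Ucp1 (2.21 FPKM, others 0.0359 to 0.242), and sham 1 for Lep, with 0.0181 FPKM from 1 read. Lep lay at or under the floor in every library.

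IPF 4 was also far above its group for Myl7 (63.9 FPKM), Myh6 (18.7 FPKM), Hc (155 FPKM) and Cox8c (0.120 FPKM, 1 read). Sham 3 was far above its group for Myl7 (55.2 FPKM), Myh6 (15.3 FPKM), Fabp3 (12.9 FPKM) and Sftpb (1854 FPKM). IPF 3 was far above its group for Plin5 (1.01 FPKM), Gsto1 (77.2 FPKM) and Pgd (23.7 FPKM). Sham 1 was far below its group for Sftpc (9437 FPKM). Single high values were also found for Adipor1 in IPF 5 (50.0 FPKM), Adrb1 in IPF 1 (39.6 FPKM) and Cidec in sham 5 (7.60 FPKM).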

How the results depend on the processing

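No member passed under any of the 20 alternatives run, 2 of which (without IPF 3 and IPF 4, and without IPF 4 and sham 3) were chosen after seeing the data; with a mean of at least 1 FPKM only Cox8b was left to test. Limma adjusted p ranged from 0.387 to 0.700 for Adipoq, 0.216 to 0.897 for Cfd, 0.193 to 0.427 for Ucp1, 0.575 to 0.995 for Cidea and 0.126 to 0.528 for Cox8b. The log2 fold change of Ucp1 was 0.42 with a pseudocount of 1 and 2.73 with 0.01, and that of Cfd 0.67 and 2.24. Cidea changed sign with a pseudocount of 1 (-0.018), without IPF 2 (-0.038), IPF 3 (-0.062) or sham 5 (-0.32), and without IPF 3 and IPF 4 (-0.053), within -0.32 to 0.17 when 1 library was left out. The difference in the white to brown ratio was -0.357 (without IPF 3) to 1.09 (without sham 1) when 1 library was left out, values within the pooled SD of the main one. As a difference of mean log2 values it was -0.260, a quantity with a pooled SD of its own of 0.754, and the cause of the change in sign was not tested.

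With the replicate number as a block, 0 members, 0 higher and 0 lower brown and beige genes, 4 higher and 3 lower adipocyte genes passed. Deviations of same-numbered libraries correlated at -0.0204 to 0.0953. IPF 1, IPF 2 and IPF 5 correlated best with the sham library of their own number, and IPF 3 and IPF 4 did not. Higher adipocyte genes numbered 3 with all libraries, 2 to 4 with 1 library left out, 1 without IPF 3 and IPF 4 and 1 without IPF 4 and sham 3. Lower adipocyte genes numbered 2, but 5 with limma voom, 4 without IPF 3 and 6 without IPF 5 (range 2 to 6). Higher brown and beige genes numbered 1, but 0 with no variance trend and 0 in both added settings, and lower ones 1, but 0 in both added settings (each 0 to 1 with 1 library left out). Lower receptors numbered 1, but 0 with no filter, with no variance trend, without IPF 3 and IPF 4 and without IPF 4 and sham 3 (0 to 1 with 1 library left out). The cause of these shifts was not tested.

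For single genes, 205 of 251 values kept their direction and side of the limit, 41 lost the call and 5 changed sign. Dgat2 and Adrb3 passed the adjusted p limit in all 20 alternatives, but Adrb3 missed the fold limit in 9 of them, with log2 fold changes of 0.82 to 1.10 over the 20. Without IPF 4 and sham 3, limma adjusted p was 0.0530 for Tusc5 and 0.0597 for Scd1, and 0.0760 for Scd1 without IPF 3 and IPF 4. Over all genes, 759 higher and 437 lower genes became 494 to 950 and 274 to 670 with 1 library left out, the extremes without IPF 4 and IPF 5 and without sham 3 and IPF 5. They became 313 and 232, and 267 and 129, in the added settings. Past both limits, 139 and 94 became 38 and 36 with a pseudocount of 1. Depth limits the members: for 7 of the 8, most libraries held fewer than 10 reads.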

Other observations

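Fibroblasts of the lung that store lipid were described by a list of 7 genes, written with earlier results known. All 7 were tested, 2 rose, 0 fell and 5 did not pass (3.71% of all genes tested rose and 2.14% fell), with a median log2 fold change of 0.23, beside 0.0016 over all genes. Pdgfra, a growth factor receptor of these fibroblasts, rose by 0.35 (limma adjusted p = 0.0212), and Wnt2, a signalling ligand of lung mesenchyme, rose by 0.65 (limma adjusted p = 0.00597). The most abundant genes of the list, Inmt, Npnt and Tcf21, did not pass. At an unadjusted p under 0.05 from limma, 3 of the 7 passed, beside 19.5% of all genes tested. Pdgfra and Wnt2 are named after their values were seen.

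Of 9 peripheral nerve genes, 5 were tested and 0 passed in limma, with 2 at an unadjusted p under 0.05, a limit that 19.5% of all genes tested passed. Of 9 mesothelium genes, 0 rose and 1 fell, beside 3.71% and 2.14% of all genes tested, and the median log2 fold change was 0.19, with 7 positive and 2 negative. The negative ones were Krt7 (log2 fold change -0.30, limma adjusted p = 0.0345) and Krt19 (-0.34), keratins that lung epithelium also makes. No heart muscle gene of 11 tested, skeletal muscle gene of 7, lymph node and thymus gene of 6 or lung epithelium gene of 8 passed in limma, with 0, 0, 2 and 0 at an unadjusted p under 0.05, beside the same 19.5%. Among the most abundant genes of these lists, Actc1, Mylpf, Tnni2, Acta1, Krt19, Msln, Cd8b1, Fcer2a, Cxcl13, Pmp22, Prx and Mbp had limma adjusted p from 0.0805 (Krt19) to 0.886 (Mylpf).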
